A study of Homo sapiens with 2 samples.

Results

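The TNF ligand and receptor superfamily was examined in R-HL60, a cytarabine-resistant line, and in HL60, the parental acute myeloid leukaemia line from which it was selected by prolonged exposure to rising cytarabine doses. Members were the genes whose name on the array starts with TNFSF or TNFRSF, with TNF, LTA, LTB, LTBR, CD70, CD27, CD40, CD40LG, FAS, FASLG, NGFR, EDAR and EDA2R. These were 45 of 43270 genes, read by 60 of 58201 probes, and they comprised 17 ligands and 28 receptors. Every distinct name on the array counted as a gene, after older symbols were updated to current ones. Of the 43317 names 20612 matched no current or older symbol, whereas all 45 members had current symbols. Shares, ranks and medians over all genes therefore include these unmatched names. R-HL60 is labelled as treated with cytarabine and HL60 as untreated, and both lines were grown in the same medium. The sources used here do not say whether the drug was present at harvest or whether R-HL60 is a single clone. Each line was read by 1 Agilent single-colour array, so there was no test between cultures, and line and array cannot be told apart. Because total RNA of a whole culture was measured, fewer cells of a type and less RNA per cell cannot be told apart either.

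Ligands of this superfamily are mostly trimeric membrane proteins, some of which are cut from the surface. Receptors carry cysteine-rich repeats outside the cell and signal inside it through different adaptors. Receptors with a death domain bind adaptors such as TRADD and FADD and can start caspase-8 cleavage, whereas the others bind TRAF adaptors and lead mainly to NF-kB and MAP kinase signalling. Decoy receptors bind a ligand without passing the signal on. Monocytes and granulocytes are well-known sources of TNF and of TNFSF13B (BAFF), and CD70 is known from activated lymphocytes and from myeloid leukaemia blasts.

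Signals were scaled to the 75th percentile of their array, which was 294 in R-HL60 and 292 in HL60. The median signal, 32.8 in R-HL60 and 30.7 in HL60, served as the floor below which a signal was not read as expression. The HL60 character was visible on both arrays: 9 of 11 promyelocyte genes were above the floor on each, KIT was below it on both, and CD34 was above it in HL60 only. Of those 9 genes 8 had a log2 difference (R-HL60 minus HL60) below 0. A value below 0 was common, however, and was found for 12491 of 21838 genes measured in both lines. The granule protease genes ELANE (-2.20) and PRTN3 (-0.80) were past 1.5-fold lower in R-HL60. The other 7 promyelocyte genes lay within 1.5-fold, from CTSG at -0.19 to SPI1 at 0.08. Some markers of other cell types also lay above the floor on both arrays, namely 5 of 7 T cell, 5 of 8 B and plasma cell, 3 of 6 NK cell, 5 of 8 monocyte and dendritic cell and 3 of 7 fibroblast and endothelial genes. In R-HL60 the summed signals of these lists were 17086 for T cells, 10129 for B and plasma cells, 4510 for NK cells, 1782 for monocytes and dendritic cells and 383 for fibroblasts and endothelium. In HL60 they were 14131, 10752, 4635, 3400 and 428 in the same order. In R-HL60 CD4 (10606) and CD3D (6201) made up most of the T cell sum. SDC1 (6750) made up most of the B and plasma cell sum there. Since signals of different probes cannot be set against each other, the sums give no amount of a cell type. In the monocyte and dendritic cell list CCR7 was 2.45-fold lower and CLEC9A 2.09-fold higher in R-HL60. Among the defining genes below the floor on both arrays were CD3G, PAX5, GNLY, CD1C and COL1A1. The part of such cells or genes in the results was not tested.

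A single member stood far above the rest. CD70 was 11.1-fold higher in R-HL60, and TNFRSF12A, the TWEAK receptor, was 2.05-fold lower. TNFSF10 (TRAIL) and TNFSF9 (4-1BB ligand) were between 1.5-fold and 2-fold higher, and TNF and TNFRSF4 (OX40) between 1.5-fold and 2-fold lower. The other members measured on both arrays lay within 1.5-fold.

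Of the 45 members, 26 were above the floor on both arrays, 3 in R-HL60 only and 16 on neither. Over all 43270 genes these numbers were 21838, 845 and 19739, with 848 in HL60 only. Measured on 1 or both arrays were thus 64.4% of the members and 54.4% of all genes. Past 2-fold were 1 higher and 1 lower of the 29 members measured on 1 or both arrays, where 0.786% and 0.297% of all 23531 such genes were past 2-fold. Past 1.5-fold were 3 higher and 3 lower, where 3.53% and 1.38% of all such genes were. The lower call depends on the scaling: it had 0 members with quantile normalization, with loess and in the authors' deposited table, and 2, TNF and TNFRSF12A, with a median shift. Over all genes 185 were higher and 70 lower, or 129 and 91 with the median shift.

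The members' median lay close to that of all genes. The median log2 difference (R-HL60 minus HL60) was -0.01 over the 26 members on both arrays and -0.03 over all 21838 genes so measured. Above 0 were 13 members and below it 13, where 42.8% of all genes so measured were above 0. The middle of the members ran from -0.17 to 0.27 (lower and upper quartile), against -0.15 to 0.11 for all genes. Ligands had a median of 0.11 over 8 genes and receptors of -0.06 over 18. Within 1.5-fold lay 4 of those 8 ligands and 16 of the 18 receptors, and 95.6% of all genes. These counts are descriptions, since no replicate array gives the spread between cultures.

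**Figure D1:**
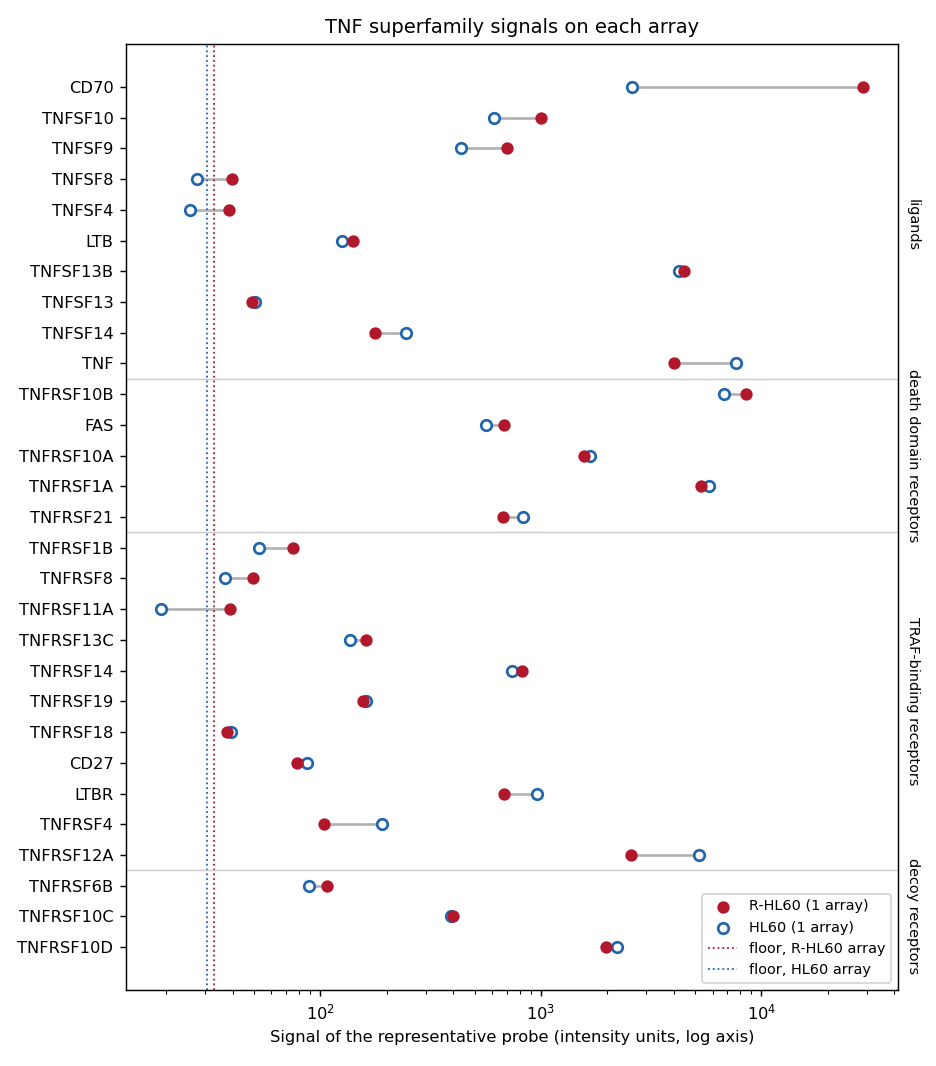
Signal of each member measured on 1 or both arrays, by role (R-HL60 filled red, HL60 open blue, 1 array each; log axis in intensity units; dotted lines mark the floors of 32.8 and 30.7). The signal of CD70 lies at 28901 in R-HL60 and at 2581 in HL60, while most other pairs of points nearly touch; signals of different probes cannot be set against each other.

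Only the probes of a gene against each other gave an error. Over 4723 genes with several probes above the floor, their log2 differences had a probe-to-probe SD of 0.19, from 0.29 in the dimmest to 0.12 in the brightest of 5 classes. Variation from culture to culture or array to array is not part of it. The value given beside each member below is that of its brightness class.

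Among the ligands, CD70, which binds CD27 and costimulates lymphocytes, had a signal of 28901 in R-HL60 and 2581 in HL60. Its log2 difference was 3.48, with a probe-to-probe SD of 0.12, and ranked 5 from the top among the 21838 genes measured on both arrays. It rested on 1 probe. The difference ran from 3.39 to 3.55 over the other settings tried, and in the authors' deposited table CD70 was 11.6-fold higher. Its receptor CD27 did not share this difference, with 78.0 in R-HL60 and 87.2 in HL60 (-0.17, SD 0.24).

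TNFSF10 encodes TRAIL, a ligand that can trigger apoptosis through TNFRSF10A and TNFRSF10B. Its brightest probe read 998 in R-HL60 and 611 in HL60, a 1.62-fold difference (log2 0.70, SD 0.14). A further probe gave 0.62, and the dimmest, close to the floor, gave 0.16, so all 3 probes were higher in R-HL60 but by unequal amounts. Their mean gave 0.49. TNFSF9, which costimulates T cells through TNFRSF9, read 702 in R-HL60 and 433 in HL60 (0.69, SD 0.18) on its only probe. Both differences were well beyond the error between probes but short of 2-fold.

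TNF, the founding ligand and a strong activator of NF-kB, went the other way. Its signal was 4022 in R-HL60 and 7648 in HL60, which made it 1.91-fold lower (log2 -0.94, SD 0.12). Over the other settings the difference ran from -1.03 to -0.86. TNFSF14 (LIGHT), a ligand of LTBR and TNFRSF14, read 176 in R-HL60 and 245 in HL60 (-0.48, SD 0.18). Both ligands were thus lower by more than probes of a gene usually differ.

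The remaining ligands measured on both arrays differed by less than the SD between probes. The B cell survival factor TNFSF13B read 4463 in R-HL60 and 4235 in HL60 (0.07). Its relative TNFSF13 (APRIL) read 48.9 in R-HL60 and 50.6 in HL60 (-0.06). LTB, which forms the membrane lymphotoxin together with LTA, read 140 in R-HL60 and 125 in HL60 (0.16). TNFSF4 (OX40 ligand) and TNFSF8 (CD30 ligand) were above the floor in R-HL60 only, at 38.7 and 39.7, and were at least 1.25-fold and at least 1.29-fold higher. Both bounds rest on signals just over the floor. With 50 units added they were 1.09-fold and 1.11-fold, and without a floor the differences were 0.59 and 0.52.

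**Figure D2:**
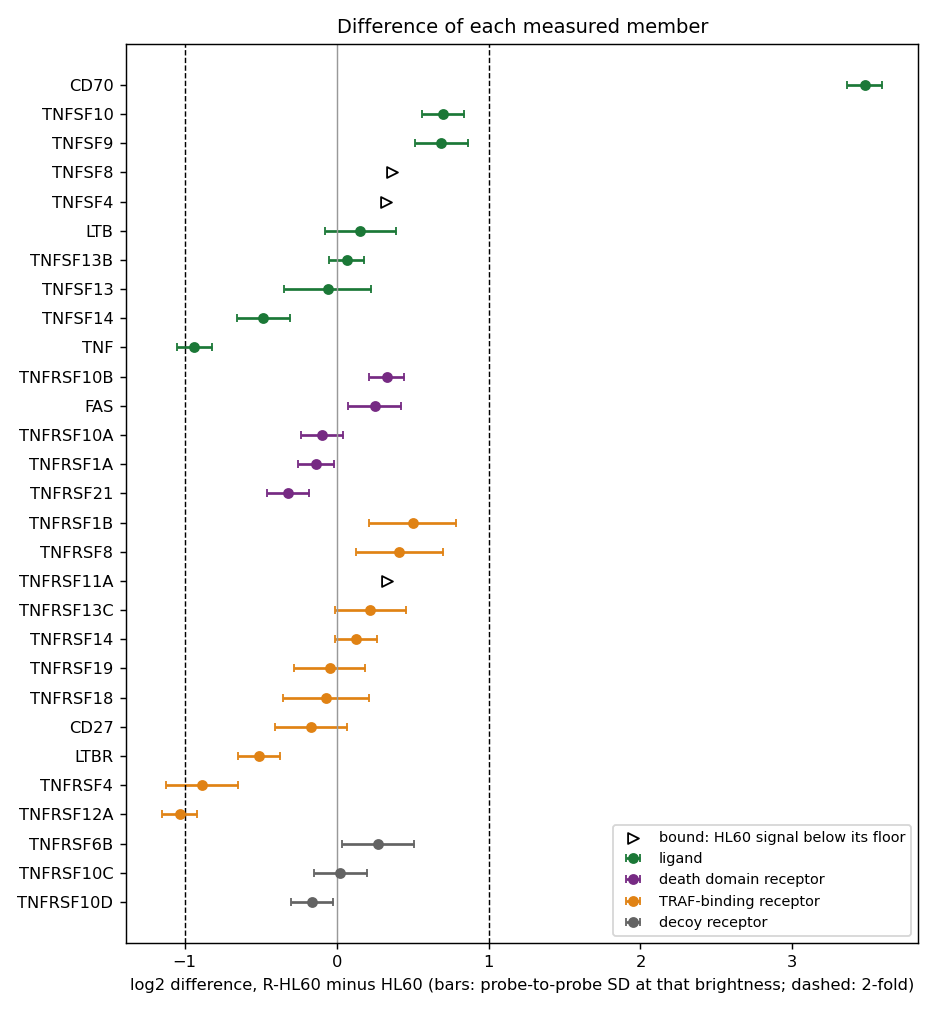
Log2 difference (R-HL60 minus HL60) of each member measured on 1 or both arrays, coloured by role, with the probe-to-probe SD at that brightness as error bar; arrows are bounds, and dashed lines mark 2-fold. CD70 at 3.48 is the only point right of the 2-fold line, and TNFRSF12A at -1.03, TNF at -0.94 and TNFRSF4 at -0.89 lie within 1 SD of the 2-fold line on the left.

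Promoter sequences are shown for the pair of members with the largest positive and the pair with the largest negative difference among the 29 of 45 members matched by symbol in a RefSeq table of GRCh38.p14. CD70, TNFRSF12A and TNFRSF4 were not among the 29. Each is the 250 bases before the listed start site, 5′ to 3′ on the gene's strand. Capitals mark TATAAA and GGGCGG, with GGGCGG on the opposite strand read as CCGCCC. For a gene with several listed start sites the first was taken.
TNFSF10 (chr3:172523431-172523680, minus strand): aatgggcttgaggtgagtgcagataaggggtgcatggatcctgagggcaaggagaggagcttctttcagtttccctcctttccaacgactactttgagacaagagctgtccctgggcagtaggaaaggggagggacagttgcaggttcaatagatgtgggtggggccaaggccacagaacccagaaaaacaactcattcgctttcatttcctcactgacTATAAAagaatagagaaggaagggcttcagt
TNFSF9 (chr19:6530776-6531025, plus strand): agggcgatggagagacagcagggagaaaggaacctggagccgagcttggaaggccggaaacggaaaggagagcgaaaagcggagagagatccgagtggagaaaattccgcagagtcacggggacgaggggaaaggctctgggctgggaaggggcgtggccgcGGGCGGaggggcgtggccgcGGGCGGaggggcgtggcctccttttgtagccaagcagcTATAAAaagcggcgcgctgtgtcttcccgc
TNF (chr6:31575315-31575564, plus strand): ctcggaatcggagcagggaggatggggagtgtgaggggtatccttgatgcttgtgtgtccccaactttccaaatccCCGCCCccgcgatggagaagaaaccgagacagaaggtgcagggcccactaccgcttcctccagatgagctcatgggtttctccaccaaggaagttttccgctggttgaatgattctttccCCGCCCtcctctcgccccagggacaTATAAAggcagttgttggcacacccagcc
LTBR (chr12:6383912-6384161, plus strand): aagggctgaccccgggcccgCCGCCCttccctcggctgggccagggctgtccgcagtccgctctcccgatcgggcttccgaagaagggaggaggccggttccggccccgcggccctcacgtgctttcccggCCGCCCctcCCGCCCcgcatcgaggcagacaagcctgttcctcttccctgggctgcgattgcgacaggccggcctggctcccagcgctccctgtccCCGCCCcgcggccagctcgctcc

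In these windows TATAAA began at -31 in TNFSF10, -30 in TNFSF9 and -29 in TNF, counted from the start site, and LTBR held none. TNFSF10 and TNFSF9, with higher signal in R-HL60, and TNF, with lower signal, thus had the same letters at nearly the same place. Over the 29 matched promoters TATAAA, on either strand, was in 13.8% (TNF, TNFRSF18, TNFSF10 and TNFSF9), against 10.8% of 34943 promoters. Members entered with their first listed start site only, whereas the 34943 hold every distinct start site, several for some genes. GGGCGG was in 58.6% of the members' promoters and 42.5% of all. A 10-base NF-kB consensus, searched on both strands, was in those of LTB, TNFRSF14, TNFRSF9 and TNFSF14, or 13.8% against 9.95%. The AP-1 letters TGANTCA were in CD27, FAS, TNFRSF9, TNFSF14 and TNFSF15 (17.2% against 6.59%), and the STAT letters TTCNNNGAA in LTA, LTB, TNFRSF9 and TNFSF11 (13.8% against 6.56%). Matches of different motifs overlapped in 0 of the members' promoters. A match is a run of letters only and does not show that a factor binds there.

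Receptors with a death domain differed little. TNFRSF10B (DR5), a TRAIL receptor, read 8548 in R-HL60 and 6760 in HL60 (0.33, SD 0.12). The other apoptosis-inducing TRAIL receptor, TNFRSF10A (DR4), read 1566 in R-HL60 and 1663 in HL60 (-0.10, SD 0.14), within the SD between probes. FAS, the receptor of FAS ligand, read 677 in R-HL60 and 566 in HL60 (0.25, SD 0.18). Its further probes gave 0.23 and 0.27, so 3 of 3 probes were slightly higher in R-HL60 and agreed closely.

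TNFRSF1A, the main TNF receptor of most cells, read 5302 in R-HL60 and 5793 in HL60 (-0.14, SD 0.12). TNFRSF21 (DR6) read 672 in R-HL60 and 833 in HL60 (-0.32, SD 0.14). NGFR, EDAR and TNFRSF25 (DR3) were below the floor on both arrays. All 5 measured death domain receptors were within 1.5-fold.

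The TRAF-binding receptors ran from -1.03 to 0.50, and 2 of the 11 measured were past 1.5-fold lower. TNFRSF12A, which binds TWEAK and is known from growth factor-stimulated and injured tissue, read 2552 in R-HL60 and 5188 in HL60. Its log2 difference was -1.03 with an SD of 0.12, on 1 probe. It lay between -1.12 and -0.96 over the other settings, so that whether it passed 2-fold depended on the scaling. Its ligand gene TNFSF12 was below the floor on both arrays.

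TNFRSF4 (OX40), a costimulatory receptor of T cells, read 104 in R-HL60 and 191 in HL60 (-0.89, SD 0.24), or 1.57-fold lower with 50 units added to each signal. LTBR, the receptor of membrane lymphotoxin and LIGHT and an activator of the non-canonical NF-kB pathway, read 680 in R-HL60 and 962 in HL60 (-0.51, SD 0.14). TNFRSF1B, the second TNF receptor, read 75.3 in R-HL60 and 52.9 in HL60 (0.50, SD 0.29). A further probe gave 0.55 but lay below the floor in HL60, so both probes were higher in R-HL60. With 50 units added, TNFRSF1B differed by 0.28.

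TNFRSF8 (CD30), also close to the floor, read 49.7 in R-HL60 and 37.1 in HL60 (0.41, SD 0.29), or 0.19 with the added units. TNFRSF14 (HVEM) read 818 in R-HL60 and 743 in HL60 (0.13, SD 0.14) on its brightest probe, and a further measured probe gave -0.07, so its probes disagreed in sign. TNFRSF13C (BAFF receptor) read 161 in R-HL60 and 137 in HL60 (0.22, SD 0.24). TNFRSF19 read 157 in R-HL60 and 161 in HL60 (-0.05), and TNFRSF18 (GITR) read 37.6 in R-HL60 and 39.2 in HL60 (-0.07). These differences, apart from that of TNFRSF8, did not exceed the SD between probes.

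TNFRSF11A (RANK), the receptor behind osteoclast formation, was above the floor in R-HL60 only, at 38.8 in R-HL60 and 19.0 in HL60, and was at least 1.26-fold higher. With a floor at the 40th percentile it was past 2-fold, and with 50 units added the bound was 1.09-fold. The decoy receptors stayed within 1.5-fold. TNFRSF6B, which captures FAS ligand and LIGHT, read 108 in R-HL60 and 88.4 in HL60 (0.27, SD 0.24). The TRAIL decoys TNFRSF10C and TNFRSF10D read 401 in R-HL60 and 392 in HL60 (0.02), and 1982 in R-HL60 and 2206 in HL60 (-0.16).

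The 16 members below the floor on both arrays have no reported difference. Besides NGFR, EDAR, TNFRSF25 and TNFSF12 these were the ligands CD40LG, FASLG, LTA, TNFSF11 (RANKL), TNFSF15 and TNFSF18, the receptors CD40, EDA2R, TNFRSF13B, TNFRSF17 (BCMA) and TNFRSF9, and the decoy TNFRSF11B (osteoprotegerin). The nearest to the floor were CD40LG, at 28.3 in R-HL60 and 30.0 in HL60, and LTA, at 25.6 in R-HL60 and 29.0 in HL60. CD40 came close in R-HL60 only, at 30.3 in R-HL60 and 16.9 in HL60 on its brighter probe. Without a floor TNFSF11 and TNFSF15 would pass 2-fold, but on signals far below it, for TNFSF11 9.24 in R-HL60 and 2.62 in HL60.

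**Figure D3:**
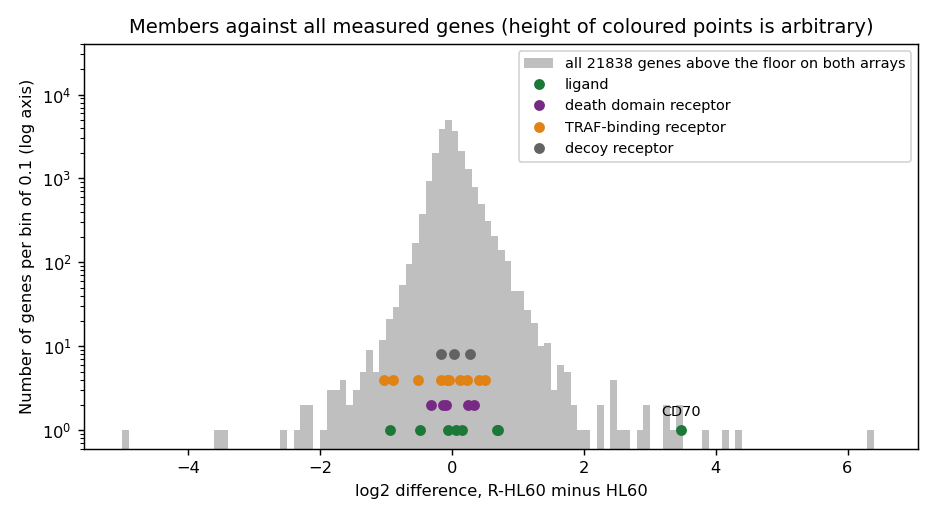
Number of genes per bin of log2 difference (R-HL60 minus HL60; log axis) for the 21838 genes above the floor on both arrays, with the 26 superfamily members so measured as coloured points by role. CD70 lies far to the right at 3.48, and the receptors lie between -1.03 and 0.50, inside the bulk of all genes or on its flanks.

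Ligands and receptors that bind each other were set side by side in 29 known pairs. Both partners were above the floor on both arrays in 12 of them. In 5 pairs a ligand was measured without its receptor, in 7 a receptor without its ligand, and in 3 pairs both were below the floor. The other 2 pairs, of TNFSF4 and TNFSF8, had a ligand above the floor in R-HL60 only. TNFSF9, 1.61-fold higher, belonged to the first kind, since TNFRSF9 read 18.9 in R-HL60 and 19.1 in HL60. FAS and TNFRSF12A belonged to the second kind. For TRAIL, with 0.70, the 4 receptors lay between -0.16 and 0.33. For TNF, with -0.94, TNFRSF1A was at -0.14 and TNFRSF1B at 0.50. Lower values on both sides were found for TNFSF14 and LTBR, with -0.48 and -0.51. LTB, which forms LTBR's other ligand together with LTA, was at 0.16, while LTA was below the floor on both arrays. The other receptors paired with TNFSF14, TNFRSF14 and TNFRSF6B, were at 0.13 and 0.27.

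Many members lie beside each other in the genome, and neighbours often differed. TNFSF9, CD70 and TNFSF14 follow each other with no coding gene between them, with log2 differences of 0.69, 3.48 and -0.48. Among the 4 coding genes on each side of CD70, the tubulin gene TUBB4A, next to TNFSF9, read 156 in R-HL60 and 64.4 in HL60 (1.26). That value rests on a dim signal in HL60, where the floor was 30.7. DENND1C (0.12), C3 (0.09), GPR108 (-0.06) and TRIP10 (0.13) were nearly equal, and CRB3 was below the floor on both arrays. High values were thus limited to 3 adjacent genes of the 9 in this window, beside a lower value for TNFSF14. In the lymphotoxin cluster TNF was at -0.94 and its neighbour LTB at 0.16, with LTA on the other side below the floor. TNFRSF18 and TNFRSF4 are adjacent as well, at -0.07 and -0.89. TNFRSF8 and TNFRSF1B, also adjacent, were alike at 0.41 and 0.50. The 4 adjacent TRAIL receptor genes ran from -0.16 to 0.33.

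**Figure D4:**
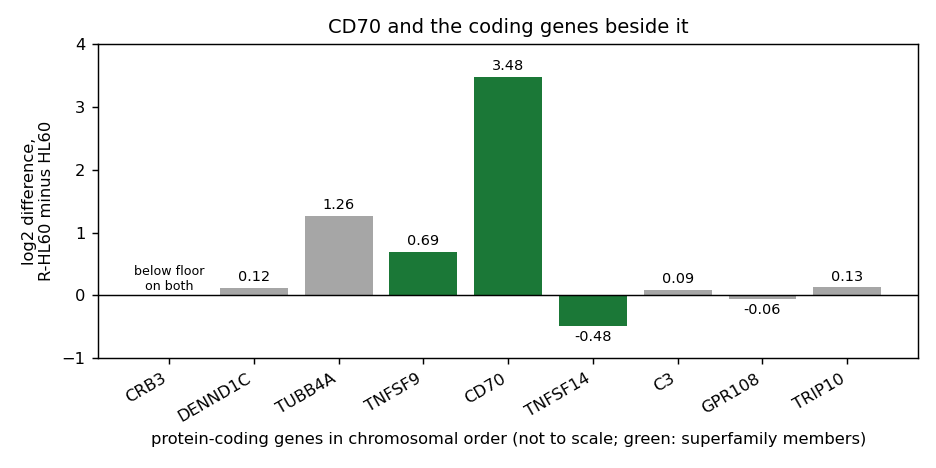
Log2 difference (R-HL60 minus HL60) of CD70 and the 4 protein-coding genes on each side, in chromosomal order and not to scale, with members in green. The bars of TUBB4A (1.26), TNFSF9 (0.69) and CD70 (3.48) point up, TNFSF14 (-0.48) points down, and the outer genes are near 0.

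Genes that act below the receptors were taken as 6 lists of 81 genes, chosen with earlier results of these data known, so that their direction is no independent evidence. Of the 76 measured on 1 or both arrays, 14 were past 2-fold higher and 0 lower, beside 0.786% and 0.297% of all genes. Their median was 0.01 over 73 genes, against -0.03 for all genes.

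The receptor-proximal adaptors had a median of -0.09 over 17 genes, 16 of them within 1.5-fold. The death domain adaptor TRADD was at -0.15, FADD at -0.12 and the kinase RIPK1 at -0.09. Among TRAF adaptors TRAF2 was at -0.03, TRAF5 and TRAF6 were both at -0.34, and TRAF3, which restrains the non-canonical pathway, was at 0.56. TRAF1 was above the floor in R-HL60 only, at 33.7 in R-HL60 and 16.9 in HL60. In this list 1 of 18 genes was past 2-fold, the ubiquitin ligase gene BIRC3 at 4.17.

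In the list of ubiquitin and kinase complexes 2 of 25 were past 2-fold, and both, the deubiquitinase CYLD (6.39) and the ubiquitin-editing enzyme TNFAIP3 (2.44), are known as brakes on TNF receptor signalling. The subunits RNF31, RBCK1 and SHARPIN of the linear ubiquitin ligase were at 0.01, 0.00 and -0.15. The kinase genes CHUK, IKBKB and MAP3K14 (NIK) were at -0.17, -0.18 and -0.11. The other 23 genes of this list lay within 1.5-fold, from MAP3K8 at -0.44 and TAB3 at -0.27 to TNIP1 at 0.37.

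Of 9 measured NF-kB subunit and inhibitor genes 4 were past 2-fold, NFKB2 (2.81), BCL3 (2.61), RELB (2.05) and NFKBIA (1.25), and RELA was at -0.08. Of 17 TNF-induced genes 7 were past 2-fold higher. These were the adhesion genes ICAM1 (2.56) and VCAM1, the chemokine genes CXCL10, CCL5 (1.87) and CCL2 (1.28), the surface marker gene CD83 (1.57) and the gelatinase gene MMP9 (1.71). CXCL10 and VCAM1 were measured in R-HL60 only and were at least 64.5-fold and at least 2.03-fold higher. Several of these values rest on dim signals in HL60. With 50 units added CXCL10 was at least 25.2-fold, VCAM1 at least 1.39-fold, BIRC3 8.56-fold, NFKB2 4.55-fold and ICAM1 3.66-fold higher. Past 1.5-fold were 10 of the 17, among them IL1B (0.97), IER3 (0.88) and TNFAIP2 (0.82), which fell short of 2-fold. CXCL2 was at 0.50 and PLAU at 0.42, whereas CXCL8 and SOD2 were both at -0.02. TNF itself was lower in the same comparison, at -0.94.

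None of 4 measured shedding genes was past 2-fold. ADAM17, the protease that releases TNF, was at 0.07, ADAM10 at -0.16, and RHBDF2, which guides ADAM17, was the furthest from 0 at -0.42. The last list held superfamily genes outside the name rule and an adaptor, none past 2-fold. The ligand EDA was at 0.24, the receptor RELT at -0.22 and EDARADD, the adaptor of EDAR, at -0.07.

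**Figure D5:**
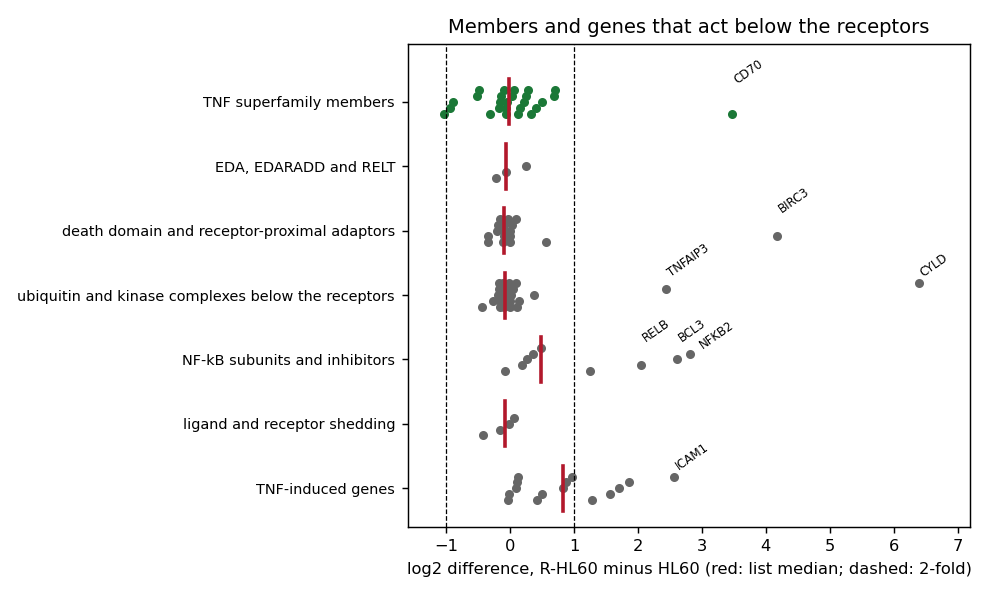
Log2 difference (R-HL60 minus HL60) of every gene above the floor on both arrays, for the superfamily members (green) and the 6 pathway lists (grey), with the median of each in red and 2-fold as dashed lines; genes past 2 on this scale are named. The medians lie between -0.09 and -0.01 except for NF-kB genes (0.48) and TNF-induced genes (0.82), and the measured genes of the lists reach no further down than -0.44.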

How the data were processed

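The deposited files hold 1 linear intensity per probe for each array, with a gene name and without probe identifiers, background values or flags. Agilent Feature Extraction 10.7.3.1 was used, per the submitters' processing notes. The sources used here give neither the scanner column nor the treatment of background. The table of normalized intensities deposited by the authors has equal quantiles in both columns and served as an alternative.

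Intensities were taken to log2 and each array's 75th percentile was subtracted. The probe with the highest mean signal stood for a gene, and 1567 older symbols were updated to current ones of GRCh38.p14. A gene above the median signal on 1 array only has a bound, computed against the higher of the other array's floor and its own signal there. With 1 array per line no p-value was computed, and genes were counted past 2-fold. The number of arrays limits the precision. Members, roles, pairs, lists and the naming rule (all members above the floor; per list the genes past 2-fold or the largest difference) were chosen with earlier results of these data known, and further list genes were named after their values were seen. A simulation of R-HL60 against HL60 held 43270 genes. It recovered 100 of 100 genes altered by 4-fold and 95 of 100 altered by 2.5-fold, and it called 0 of 22858 unaltered ones. Altered genes were drawn from bright genes only, so the recovery does not extend to dim members. Every probe had the same noise, the pooled probe-to-probe SD of 0.19. Noise so far below 2-fold fixed the lack of calls among unaltered genes beforehand. Without replicate arrays the spread between cultures is unknown, so these counts check the procedure only. They give no rate of false calls among the measured genes. Python 3.11.15, numpy 2.4.6, pandas 2.3.3, statsmodels 0.14.6 and matplotlib 3.10.9 were used.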

Additional observations from a re-analysis of the deposited data

How the results depend on the processing

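The count of members past 2-fold higher was 1, CD70, with each scaling, with 50 units added, with the floor at the 60th percentile, with the mean of all probes, with agreeing probes and at 3-fold. It was 2 with the floor at the 40th percentile, 4 without a floor and 3 at 1.5-fold. The count past 2-fold lower, 1 as reported, was 0 with quantile normalization, with loess, in the authors' deposited table and at 3-fold, 2 with a median shift and 3 at 1.5-fold. The scalings move all genes by a common or brightness-dependent amount, which carries TNFRSF12A and TNF across the line. Pathway counts stayed between 10 and 17 higher, with 0 lower, in all settings. Medians over members, ligands and receptors moved by less than the probe-to-probe SD of 0.19. Of the 29 measured members, 21 moved by less than this SD in every setting in which they had a value. Among these, TNFRSF18 and TNFSF13 had no value with the floor at the 60th percentile, and TNFRSF19 had none with the mean of all probes. TNFRSF14, TNFRSF10C and TNFSF13B changed sign in 1 setting each. No paired analysis was possible because each line has 1 array. Dim signals limit TNFSF4, TNFSF8, TNFRSF11A, TNFRSF8, TNFRSF18 and TNFSF13, which lie close to the floor.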

Other observations

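The matched promoters differed in base composition between members that were measured and members that were not. In the 250 bases before the start site the median GC content was 60.8% over 20 members measured on 1 or both arrays, from TNFSF13B at 42.8% to TNFRSF11A at 82.4%. It was 51.6% over 9 members below the floor on both arrays and 58.0% over 34943 promoters of the table. These 34943 hold several start sites for some genes, whereas each member entered with its first. Median numbers of CG dinucleotides were 9, 3 and 11. The ranges of both groups of members overlapped, since TNFRSF25, below the floor, had 73.6%. No test was made, and members that are neighbours or relatives are not independent of each other.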
